A study of Mus musculus with 10 samples.

Results

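The effect of Dkk on Tet3 knockout cells after 6 days of neural differentiation was read from 2 of the 10 libraries of the series, taken by their titles. The first library came from Tet3 KO mouse embryonic stem (ES) cells in SFEB culture with Dkk, and the second from Tet3 KO cells in the same culture without it. SFEB culture grows ES cells as floating aggregates without serum, which favours a neural fate. Dkk is described in the labels as a secreted inhibitor of the interaction between Wnt and its receptor, and which Dkk protein was used, at what dose and for which days was not found in the labels. The knockout cells of both libraries, on a C57BL/6 background, had lost a floxed Tet3 exon after transient Cre expression, and the labels do not say how many clones were used. A WT library of the same background and day is given beside the pair for its level, and the same 2 knockout conditions on day 10 form a separate pair. Each condition and day has 1 library, so there is no replicate check, no p-value was computed, and "higher" and "lower" describe these libraries only.

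Wnt ligands bind a Frizzled receptor together with the co-receptor Lrp5 or Lrp6 and so keep beta-catenin from being degraded. Beta-catenin then acts with Tcf and Lef factors on target genes. Dkk proteins bind Lrp5 and Lrp6, and the Kremen receptors take part in removing the co-receptor from the membrane. In the vertebrate embryo Wnt signalling is strong at the posterior end, where it sustains Cdx and Hox gene expression and the precursors of the body axis, and Wnt antagonists at the anterior end favour head and forebrain. Tet3 is a dioxygenase that oxidises 5-methylcytosine in DNA.

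Values are RPKM, read numbers divided by transcript length and by the library's total, which the authors deposited for 21937 gene symbols. A difference below is log2(RPKM + 0.5) with Dkk minus the same without Dkk, for the 11587 genes at 1 RPKM or more in either knockout library. Estimated depth was 10600000 reads with Dkk, 10300000 in the untreated knockout and 10200000 in WT, from the spacing of low RPKM values. Genes at 1 RPKM or more numbered 11116 with Dkk, 11244 in the untreated knockout and 11028 in WT. Tet3 itself stood at 7.64 RPKM with Dkk, 6.59 RPKM in the untreated knockout and 8.11 RPKM in WT. A whole-gene value does not test the loss of 1 exon, so it leaves the genotype unchecked. Of the pan-neural progenitor genes, 23 of 23 were detected at 1 RPKM or more in a knockout library. They summed to 881.8 RPKM with Dkk, 757.6 RPKM in the untreated knockout and 1021.3 RPKM in WT. The list was chosen with earlier results of these data known, and detection alone does not tell neural cells from others. The neural culture named in the labels was therefore not tested. These are bulk libraries, so fewer cells of a type and less RNA per cell cannot be told apart in any result below.

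With Dkk, 267 genes were at least 2-fold higher, 2.3% of those compared, and 446 were at least 2-fold lower, 3.85%. Either way this made 713 genes, or 6.15%. These shares are the background for the day 6 list counts below. The median difference over all genes was 0.01 on the log2 scale, the standard deviation across genes was 0.557, and 84.7% of genes lay within 0.5 of 0. Differences ran down to -6.67 and up to 3.94. At 8-fold or more, 17 genes were higher and 45 lower. The share of changed genes depended on level: it was 14.4% where the larger value was 1 to 2 RPKM, 5.3% at 5 to 20 RPKM and 1.54% at 100 RPKM or above. From the estimated reads, the 95% Clopper-Pearson interval of the read ratio lay off equality for 232 of 265 higher genes and for 399 of 445 lower genes with an interval. Such intervals cover counting error only, not the spread between cultures.

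**Figure D1:**
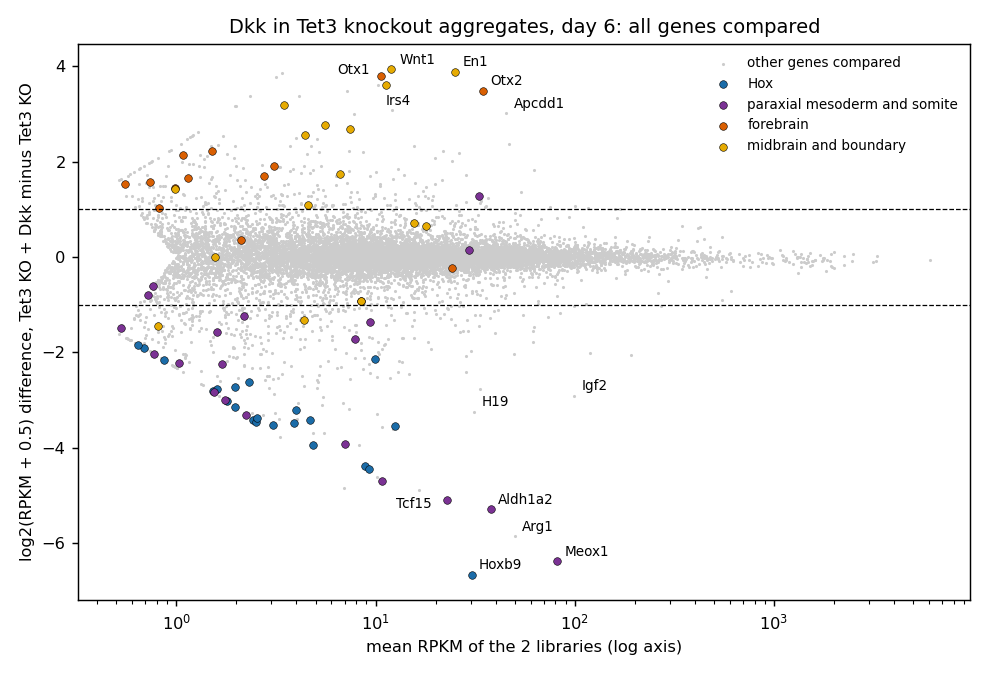
Each point is 1 of the 11587 genes compared on day 6, with its mean level in the 2 knockout libraries on a log axis and its log2(RPKM + 0.5) difference, Dkk-treated minus untreated, on the vertical axis. Most genes lie near 0, and the named genes past 2-fold include Hox and mesoderm genes far below the line and Wnt1, En1, Otx1 and Otx2 above it.

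The Hox genes, homeobox factors that give cells their position along the trunk, were far lower in sum with Dkk. All 4 clusters together summed to 8.43 RPKM with Dkk, 252.67 RPKM in the untreated knockout and 23.12 RPKM in WT. Of 39 Hox genes in the table, 23 reached 1 RPKM in a knockout library, and 23 of these 23 were at least 2-fold lower with Dkk, against 3.85% of all genes. For 21 of them only the untreated library reached 1 RPKM, so they could enter the comparison only if they were lower with Dkk. The other 16 stayed under 1 RPKM in both knockout libraries. Hox genes are made by trunk mesoderm as well as by neural tissue. The paraxial mesoderm list summed to 99.3 RPKM with Dkk, 427.5 RPKM in the untreated knockout and 77.9 RPKM in WT, and its part in the Hox sums was not tested.

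In the untreated knockout the Hoxb cluster held the largest sum. It summed to 3.03 RPKM with Dkk, 149.88 RPKM in the untreated knockout and 6.55 RPKM in WT. Hoxa genes summed to 4.54 RPKM with Dkk, 72.06 RPKM in the untreated knockout and 15.63 RPKM in WT. Hoxc and Hoxd genes were lower in level, with 16.78 and 13.95 RPKM in the untreated knockout and 0.43 RPKM in each cluster with Dkk. Along each cluster, the genes compared were of groups 1 to 9, and 0 of the 12 genes of groups 10 to 13 reached 1 RPKM in either knockout library. Groups 1 to 3, which mark the hindbrain and its border with the spinal cord, summed to 6.8 RPKM with Dkk, 115.85 RPKM in the untreated knockout and 19.6 RPKM in WT. Groups 4 to 9, which mark the spinal cord and trunk, summed to 1.34 RPKM with Dkk, 136.24 RPKM in the untreated knockout and 3.02 RPKM in WT.

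Hoxb9 had the largest negative difference of any gene compared, -6.67 on the log2 scale, with 0.1 RPKM with Dkk, 60.74 RPKM in the untreated knockout and 0.51 RPKM in WT. An estimated 3 reads with Dkk stood against 1515 without, and the interval of the read ratio, which has no pseudocount, was -11.3 to -7.47 on the log2 scale. Hoxb1 stood at 0.36 RPKM with Dkk, 18.16 RPKM in the untreated knockout and 0.61 RPKM in WT. In both genes the WT library lay with the Dkk-treated one, below 1 RPKM. Hoxa2, a rhombomere gene, was otherwise: 3.35 RPKM with Dkk, 16.45 RPKM in the untreated knockout and 11.94 RPKM in WT. Hoxb2 stood at 1.55 RPKM with Dkk, 23.57 RPKM in the untreated knockout and 3.91 RPKM in WT. Hoxc8, at 5.02 RPKM in the untreated knockout, was listed at 0 with Dkk and at 0.21 RPKM in WT. In all, 20 of the 39 Hox genes were listed at 0 with Dkk and 7 in the untreated knockout.

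**Figure D2:**
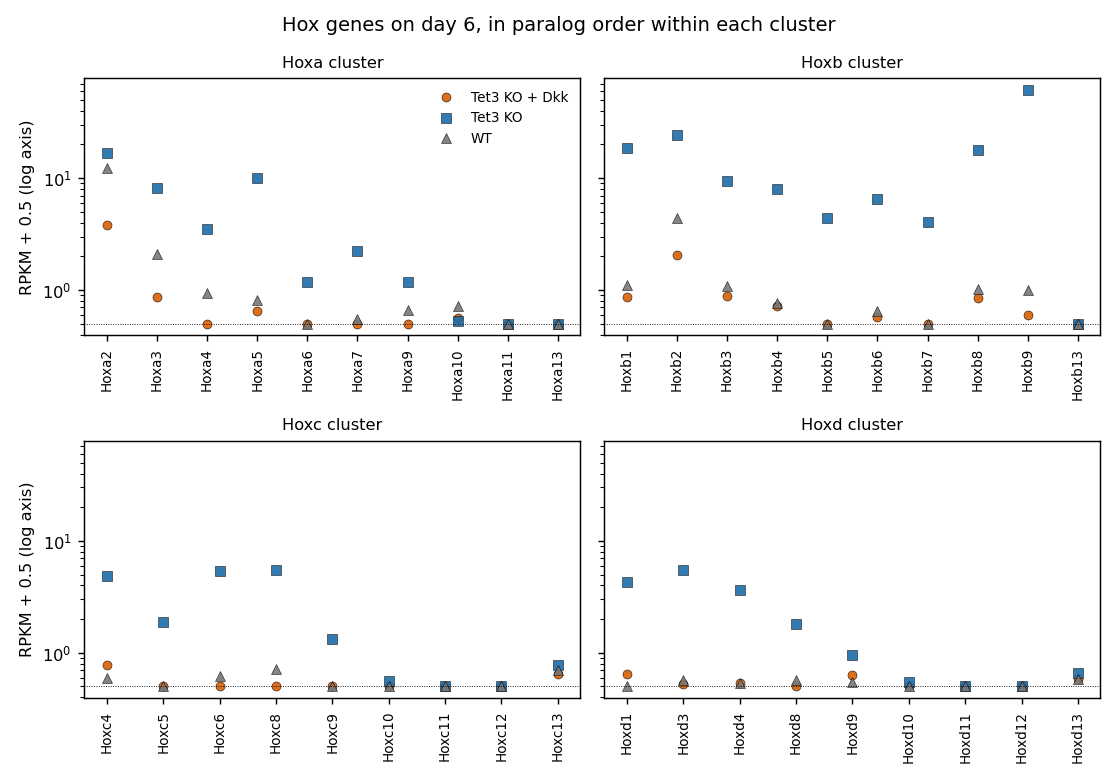
Levels of Hox genes on day 6, RPKM + 0.5 on a log axis, in paralog order within each of the 4 clusters, in Dkk-treated knockout, untreated knockout and WT libraries. The untreated knockout stands above the other libraries from group 1 to group 9, and all 3 lie near the floor from group 10 on.

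Cdx genes encode caudal homeobox factors that act upstream of trunk Hox genes. Cdx2 stood at 1.27 RPKM with Dkk, 20.38 RPKM in the untreated knockout and 0.82 RPKM in WT, a difference of -3.56 with a read-ratio interval of -4.61 to -3.49 on the log2 scale. Cdx1 stood at 0.16 RPKM with Dkk and 6.41 RPKM in the untreated knockout, and was listed at 0 in WT. Cdx4, at 2.67 RPKM in the untreated knockout, was listed at 0 in both of the others. Thus each of the 3 genes was detected chiefly in the untreated knockout.

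Of 15 genes of the tailbud and its neuromesodermal progenitors (the precursors shared by spinal cord and somites), 14 were compared, 7 were lower and 0 higher, with a median difference of -0.85. For 4 of the 14 only the untreated library reached 1 RPKM. Nkx1-2, a marker of these precursors, stood at 2.61 RPKM with Dkk, 13.11 RPKM in the untreated knockout and 1.59 RPKM in WT. T, the brachyury factor of the primitive streak, differed less than Cdx2 and stayed above WT, with 18.01 RPKM with Dkk, 37.2 RPKM in the untreated knockout and 3.64 RPKM in WT. Wnt8a, a ligand of the same region, stood at 2.1 RPKM with Dkk, 6.56 RPKM in the untreated knockout and 1.16 RPKM in WT. Of 14 primitive streak genes, 11 were compared, 4 were lower, 0 higher and 7 within 2-fold. Of these 7, Eomes, Fgf8, Tdgf1 and Wnt3 had differences of 0.7, 0.65, 0.64 and 0.4. Nodal, Mesp2 and Lefty2 had differences of -0.27, -0.8 and -0.97. For 3 of the 11 only the untreated library reached 1 RPKM. Mesp1, a first marker of nascent mesoderm, was listed at 0 with Dkk, at 1.17 RPKM in the untreated knockout and at 0.09 RPKM in WT.

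Somite and paraxial mesoderm genes, which mark the blocks that form vertebrae and trunk muscle, were 16 of 21 at least 2-fold lower with Dkk, and 1 higher, with a median difference of -2.03 beside 0.01 over all genes. For 13 of the 21 only the untreated library reached 1 RPKM. The most abundant member in the untreated knockout was Meox1, a homeobox factor of the early somite, with 1.44 RPKM with Dkk, 161.58 RPKM in the untreated knockout and 0.27 RPKM in WT. Its difference was -6.38, and its read-ratio interval was -7.34 to -6.33 on the log2 scale.

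Tcf15, the paraxis factor needed for an epithelial somite, stood at 0.81 RPKM with Dkk, 44.88 RPKM in the untreated knockout and 0.11 RPKM in WT. Foxc2 and Foxc1, forkhead factors of paraxial and vascular mesoderm, differed by -4.7 and -3.93 on the log2 scale. Foxc2 stood at 0.34 RPKM with Dkk, 21.27 RPKM in the untreated knockout and 0.11 RPKM in WT. Meox2 was listed at 0 with Dkk and stood at 4.49 RPKM in the untreated knockout and 0.04 RPKM in WT. Hes7, the oscillating repressor of the segmentation clock, was listed at 0 both with Dkk and in WT, against 3.51 RPKM in the untreated knockout. Pax1, a sclerotome gene, was listed at 0 with Dkk, against 3.08 RPKM in the untreated knockout and 0.07 RPKM in WT. The gene past 2-fold the other way was Lfng, a glycosyltransferase acting on Notch that neural progenitors also make, which was higher: 47.04 RPKM with Dkk, 19.1 RPKM in the untreated knockout and 30.13 RPKM in WT. The other 4 compared, all within 2-fold, were Msgn1, Mesp2, Pax3 and Dll1, a Notch ligand. Dll1 and Pax3 are also made by the neural tube and were well above 0 in all 3 libraries. Dll1 stood at 30.85 RPKM with Dkk, 28.04 RPKM in the untreated knockout and 29.87 RPKM in WT, and Pax3 at 5.67 RPKM with Dkk, 11.28 RPKM in the untreated knockout and 10.88 RPKM in WT.

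Other genes among the 15 lowest at 5 RPKM or more sat beside these. Dmrt2, a somite factor, stood at 0.56 RPKM with Dkk, 15.93 RPKM in the untreated knockout and 0.13 RPKM in WT. Arg1, the arginase of the urea cycle, had the next largest negative difference after Hoxb9 and Meox1 at that level, with 1.21 RPKM with Dkk, 98.81 RPKM in the untreated knockout and 0.27 RPKM in WT. The transcript 2700086A05Rik, known by its clone name, stood at 0.34 RPKM with Dkk, 20.04 RPKM in the untreated knockout and 0.12 RPKM in WT.

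Retinoic acid, made from vitamin A by paraxial mesoderm in the embryo, posteriorises neural tissue and switches on genes that bind or degrade it. The sequences shown are the promoters of 2 of its genes that were lower with Dkk, Rarb and Cyp26a1, because a repeat of the kind that retinoic acid receptors bind lies close before the start of each. They come from RefSeq on build GRCm38.p6, give the 250 bases before the annotated start, and carry the repeat in capitals. For Rarb the window is chr14:16575477-16575726 on the minus strand and the match lies 52 to 37 bases before the start. For Cyp26a1 it is chr19:37697558-37697807 on the plus strand, with the reverse complement of the repeat 32 to 17 bases before the start.
Rarb: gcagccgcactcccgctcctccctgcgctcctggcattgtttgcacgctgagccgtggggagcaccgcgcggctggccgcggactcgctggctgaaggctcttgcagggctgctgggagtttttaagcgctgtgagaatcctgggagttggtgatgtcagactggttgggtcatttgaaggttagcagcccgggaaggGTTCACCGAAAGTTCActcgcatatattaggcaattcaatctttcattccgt
Cyp26a1: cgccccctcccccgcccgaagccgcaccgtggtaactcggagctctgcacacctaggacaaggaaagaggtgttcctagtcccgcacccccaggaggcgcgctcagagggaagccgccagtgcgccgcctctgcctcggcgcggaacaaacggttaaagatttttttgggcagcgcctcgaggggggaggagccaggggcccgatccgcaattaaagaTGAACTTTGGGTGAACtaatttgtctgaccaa
The letters searched were GTTCA, any 6 bases and GTTCA again, on both strands, a form chosen after the values were seen. Among 32851 RefSeq promoters, 22 held it, or 0.067%, and 2 of the 6 lower retinoic acid genes with a promoter in the table did. Because the form was chosen with these genes already known, the counts cannot test whether the repeat is enriched among them. A match describes letters and not binding, and an unmatched promoter says only that these letters are not in its window.

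With Dkk, 7 of the 18 retinoic acid genes compared were lower and 0 higher, against 3.85% of all genes lower, and the list's median difference was -0.86. Aldh1a2, the main enzyme that makes retinoic acid in the trunk, had 1.41 RPKM with Dkk, 74.24 RPKM in the untreated knockout and 0.39 RPKM in WT, a difference of -5.29. Rarb, a retinoic acid receptor whose own gene responds to the ligand, stood at 1.05 RPKM with Dkk, 13.74 RPKM in the untreated knockout and 1.73 RPKM in WT. Dhrs3, which turns retinaldehyde back to retinol, stood at 0.42 RPKM with Dkk, 3.93 RPKM in the untreated knockout and 0.11 RPKM in WT. In these 3 genes the Dkk-treated library lay close to WT and the untreated knockout far above both.

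Stra6, a retinol uptake receptor, was also highest in the untreated knockout and stood at 4.17 RPKM with Dkk, 17.45 RPKM in the untreated knockout and 2.26 RPKM in WT. The degrading enzymes were lower too. Cyp26a1 stood at 2.84 RPKM with Dkk, 7.71 RPKM in the untreated knockout and 2.2 RPKM in WT. Cyp26b1 did not place WT with the Dkk-treated library, since it stood at 4.23 RPKM with Dkk, 14.98 RPKM in the untreated knockout and 13.14 RPKM in WT. Aldh1a2 is itself a paraxial mesoderm marker, and whether its level and that of the responding genes follow from the amount of paraxial mesoderm was not tested.

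Hedgehog signalling patterns the ventral neural tube and the sclerotome, and Patched and Gli1 are its usual transcriptional readouts. Of 12 hedgehog genes compared, 6 were lower with Dkk and 0 higher, and for 3 of the 12 only the untreated library reached 1 RPKM. Shh, the ligand of notochord and floor plate, stood at 0.95 RPKM with Dkk, 6.6 RPKM in the untreated knockout and 0.33 RPKM in WT. Ptch1, the receptor of the ligand, stood at 11.85 RPKM with Dkk, 48.28 RPKM in the untreated knockout and 11.28 RPKM in WT. Gli1, a transcription factor made in response to the signal, had the lowest difference of the list, -2.94, with 0.87 RPKM with Dkk, 9.98 RPKM in the untreated knockout and 0.67 RPKM in WT. Foxa2, a floor plate, node and endoderm factor, stood at 2.29 RPKM with Dkk, 6.5 RPKM in the untreated knockout and 0.92 RPKM in WT. Paraxial mesoderm genes were mostly lower too. Of 15 endoderm genes compared, 6 were lower, 1 was higher and 8 were within 2-fold. Mesoderm and endoderm also use hedgehog signals, and their part was not tested. The transducer Smo was level, with 60.46 RPKM with Dkk, 55.54 RPKM in the untreated knockout and 59.25 RPKM in WT.

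Forebrain regulators were the list with the largest share higher: 12 of 14 compared were at least 2-fold higher with Dkk and 0 lower, against 2.3% of all genes higher. Their median difference was 1.69. For 9 of the 14 only the Dkk-treated library reached 1 RPKM. The 22 genes of the list summed to 134.5 RPKM with Dkk, 38.9 RPKM in the untreated knockout and 75.2 RPKM in WT.

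The most abundant member with Dkk was Otx2, the homeobox factor of forebrain and midbrain, with 64.16 RPKM with Dkk, 5.27 RPKM in the untreated knockout and 32.03 RPKM in WT. Its difference was 3.49, with a read-ratio interval of 3.21 to 4.03 on the log2 scale. Otx1 stood at 20.28 RPKM with Dkk, 0.99 RPKM in the untreated knockout and 9.63 RPKM in WT. Emx2, a cortical factor, stood at 5.2 RPKM with Dkk, 1.01 RPKM in the untreated knockout and 0.49 RPKM in WT. Fezf1, a repressor of the rostral forebrain, stood at 2.8 RPKM with Dkk, 0.21 RPKM in the untreated knockout and 0.76 RPKM in WT. Barhl2, a diencephalic factor, stood at 2.07 RPKM with Dkk, 0.08 RPKM in the untreated knockout and 0.21 RPKM in WT. In each of these 5 genes the Dkk-treated library was the highest of the 3.

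Regulators of the midbrain and of its boundary with the hindbrain were also mostly higher, 10 of 16 compared, with 2 lower and a median difference of 1.58. Their 18 genes summed to 199.5 RPKM with Dkk, 61.4 RPKM in the untreated knockout and 201.6 RPKM in WT. For 3 of the 16 compared only the Dkk-treated library reached 1 RPKM, and for 1 only the untreated one. Wnt1, the Wnt ligand of the boundary, had the largest positive difference of any gene compared, 3.94, with 22.77 RPKM with Dkk, 1.02 RPKM in the untreated knockout and 21.1 RPKM in WT. Its read-ratio interval was 3.9 to 5.12 on the log2 scale. En1, the engrailed factor of the same region, stood at 47.53 RPKM with Dkk, 2.73 RPKM in the untreated knockout and 38.48 RPKM in WT. In both genes the Dkk-treated library and WT were close to each other and the untreated knockout was far below them.

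En2 stayed below WT, with 13.23 RPKM with Dkk, 1.64 RPKM in the untreated knockout and 26.24 RPKM in WT. Tal2, a factor of midbrain inhibitory neurons, stood at 21.31 RPKM with Dkk, 1.27 RPKM in the untreated knockout and 18.91 RPKM in WT. Dmbx1, a midbrain homeobox factor, stood at 6.65 RPKM with Dkk, 0.29 RPKM in the untreated knockout and 4.54 RPKM in WT. Pax5, a paired-box factor of the boundary, stood at 10.09 RPKM with Dkk, 1.04 RPKM in the untreated knockout and 11.43 RPKM in WT. The 2 lower genes were Gata3 and Foxa2, and Foxa2 is shared with the endoderm, streak and hedgehog lists.

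Hindbrain and spinal cord regulators other than Hox genes were 8 of 13 lower and 0 higher, against 3.85% of all genes lower, with a median difference of -1.07. The 8 became 4 with a pseudocount of 1 and 4 with a filter of 5 RPKM, and for 5 of the 13 only the untreated library reached 1 RPKM. Their 17 genes summed to 61.5 RPKM with Dkk, 121.2 RPKM in the untreated knockout and 129.5 RPKM in WT. Mnx1, a motor neuron and notochord factor, stood at 0.64 RPKM with Dkk, 5.11 RPKM in the untreated knockout and 0.2 RPKM in WT. Nkx6-1, a ventral progenitor factor, stood at 3.45 RPKM with Dkk, 10.4 RPKM in the untreated knockout and 2.02 RPKM in WT. Olig2, the motor neuron progenitor factor, stood at 0.46 RPKM with Dkk, 2.58 RPKM in the untreated knockout and 0.72 RPKM in WT. Dbx1 and Irx3, expressed through much of the neural tube, were the 2 most abundant and were lower with Dkk than in either of the others. Dbx1 stood at 14.62 RPKM with Dkk, 31.29 RPKM in the untreated knockout and 52.88 RPKM in WT, and Irx3 at 15.65 RPKM with Dkk, 32.14 RPKM in the untreated knockout and 31.35 RPKM in WT. Both lay close to the 2-fold line, with differences of -1.07 and -1.02.

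**Figure D3:**
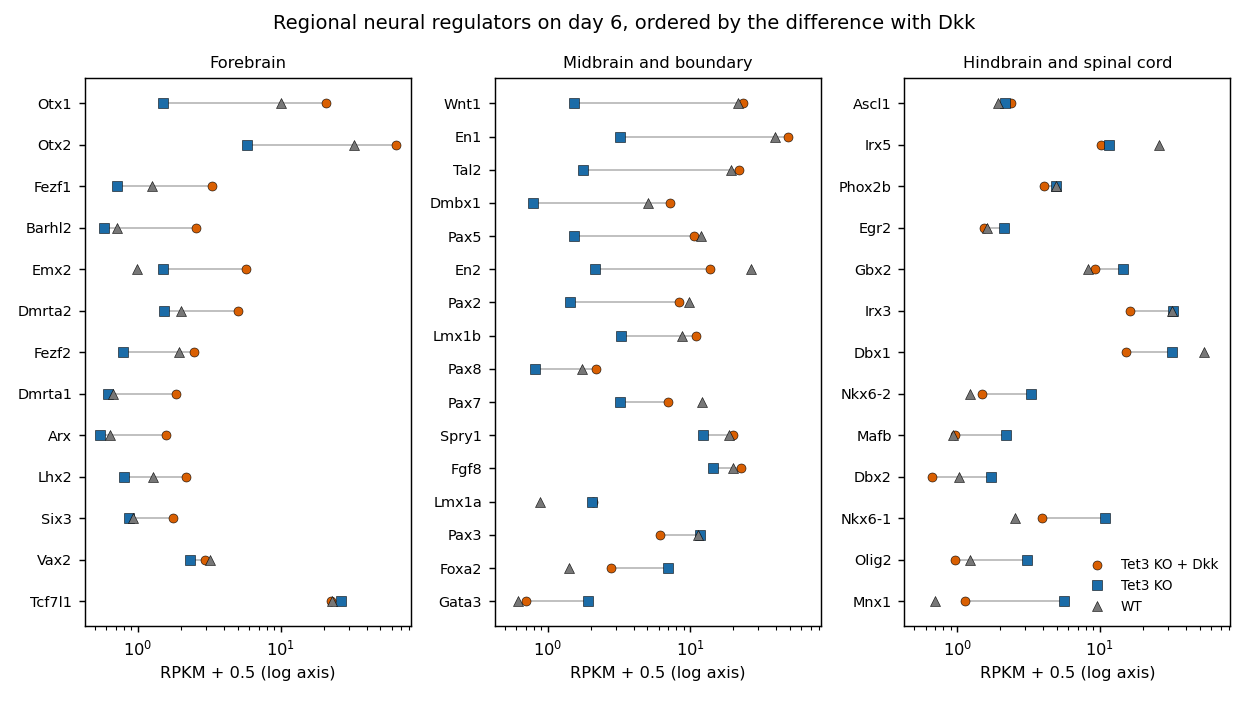
Selected regional neural regulators on day 6, RPKM + 0.5 on a log axis, each gene a row with its level in Dkk-treated knockout, untreated knockout and WT libraries. Most forebrain and midbrain genes sit to the right of the untreated knockout with Dkk, and most hindbrain and spinal cord genes sit to its left.

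Genes shared by neural progenitors of every level differed less. Of 23 pan-neural genes compared, 4 were higher and 0 lower, and their median difference was 0.47. The 4 were Lhx5, Zic1, Sox21 and Pou3f1. Zic1, a zinc finger factor of the dorsal and anterior neural plate, stood at 14.47 RPKM with Dkk, 2.74 RPKM in the untreated knockout and 3.68 RPKM in WT. Sox21, a neural Sox factor, stood at 47.13 RPKM with Dkk, 20.55 RPKM in the untreated knockout and 48.65 RPKM in WT. Pax6, a paired-box factor of forebrain, hindbrain and spinal cord progenitors, was the lowest of the list, within 2-fold: 18.05 RPKM with Dkk, 33.07 RPKM in the untreated knockout and 21.58 RPKM in WT. Neuronal genes had 1 higher and 4 lower of 20 compared, and a median difference of 0.03. Map2, a cytoskeletal protein of dendrites, was the higher one, at 9.75 RPKM with Dkk, 4.26 RPKM in the untreated knockout and 8.8 RPKM in WT. Ncam1, an adhesion molecule, was the lowest, at 3.56 RPKM with Dkk, 11.19 RPKM in the untreated knockout and 4.0 RPKM in WT.

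Of the Wnt pathway itself, the ligands went both ways. Of 12 compared of 19 in the table, 4 were higher, 2 lower and 6 within 2-fold, with a median difference of 0.49, and the list summed to 101.6 RPKM with Dkk, 39.3 RPKM in the untreated knockout and 58.1 RPKM in WT. Besides Wnt1, the higher ligands were Wnt8b, Wnt7b and Wnt4. Wnt8b, a ligand of the forebrain and its dorsal edge, stood at 13.66 RPKM with Dkk, 0.77 RPKM in the untreated knockout and 2.32 RPKM in WT. Wnt7b stood at 22.1 RPKM with Dkk, 2.17 RPKM in the untreated knockout and 6.12 RPKM in WT. Both stood above WT as well. Wnt4 stood at 5.79 RPKM with Dkk, 2.02 RPKM in the untreated knockout and 2.76 RPKM in WT. Those lower were Wnt8a, given above, and Wnt16, which was listed at 0 with Dkk and in WT and stood at 2.73 RPKM in the untreated knockout. Wnt3a, Wnt3, Wnt5a, Wnt5b, Wnt7a and Wnt9a lay within 2-fold, with differences between -0.97 and 0.98. Wls, the carrier that brings Wnt proteins to the cell surface, was the highest of 23 intracellular pathway genes and the only one past 2-fold, with 135.76 RPKM with Dkk, 64.86 RPKM in the untreated knockout and 60.85 RPKM in WT.

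Secreted modulators of Wnt went both ways, with 3 of 10 compared higher and 4 lower. The R-spondins, which raise Wnt signalling by sparing its receptors, were on both sides. Rspo2 stood at 7.97 RPKM with Dkk, 0.32 RPKM in the untreated knockout and 5.19 RPKM in WT. Rspo1 stood at 8.89 RPKM with Dkk, 1.53 RPKM in the untreated knockout and 3.95 RPKM in WT. Rspo3 was lower, with 4.81 RPKM with Dkk, 10.78 RPKM in the untreated knockout and 1.55 RPKM in WT.

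Of the antagonists, Dkk1 mRNA stood at 4.82 RPKM with Dkk, 1.99 RPKM in the untreated knockout and 2.54 RPKM in WT. Sfrp5, which binds Wnt, stood at 0.59 RPKM with Dkk, 5.85 RPKM in the untreated knockout and 0.1 RPKM in WT. Cer1, which binds Nodal and BMP and, in Xenopus, Wnt, stood at 3.39 RPKM with Dkk, 12.44 RPKM in the untreated knockout and 0.22 RPKM in WT. Dkk3 stood at 0.61 RPKM with Dkk, 2.02 RPKM in the untreated knockout and 0.47 RPKM in WT. Sfrp1, Sfrp2 and Frzb, more abundant Wnt-binding proteins, lay within 2-fold, with differences of -0.13, -0.57 and -0.52.

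The receptors that Dkk acts on hardly differed. Lrp6 stood at 14.04 RPKM with Dkk, 14.02 RPKM in the untreated knockout and 19.86 RPKM in WT. Lrp5 stood at 19.41 RPKM with Dkk, 25.64 RPKM in the untreated knockout and 19.29 RPKM in WT. Kremen1, which takes part with Dkk in removing Lrp6, stood at 6.78 RPKM with Dkk, 6.88 RPKM in the untreated knockout and 5.29 RPKM in WT. Among 19 receptors and co-receptors compared, 1 was past 2-fold, or 5.26%, beside 6.15% of all genes. It was Fzd4, lower, with 1.6 RPKM with Dkk, 3.96 RPKM in the untreated knockout and 1.09 RPKM in WT. The other Frizzled genes compared ran between -0.86 for Fzd2 and 0.69 for Fzd3. Ctnnb1, which encodes beta-catenin, stood at 437.19 RPKM with Dkk, 422.49 RPKM in the untreated knockout and 413.72 RPKM in WT. The other intracellular genes besides Wls ran between -0.82 for Tle2, a co-repressor, and 0.64 for Tle4, another.

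Genes used as readouts of Wnt signalling did not move one way. Of 19 compared, 4 were higher and 4 lower, and the median difference was -0.06. The 4 lower ones were Cdx1, Cdx2, Cdx4 and T, given above. The 4 higher ones were feedback or inhibitor genes. Axin2, the feedback scaffold that is the most used readout, stood at 32.65 RPKM with Dkk, 10.27 RPKM in the untreated knockout and 19.89 RPKM in WT, a difference of 1.62. Apcdd1, a membrane inhibitor of Wnt, stood at 80.92 RPKM with Dkk, 9.57 RPKM in the untreated knockout and 43.37 RPKM in WT, a difference of 3.02. Nkd1, an inhibitor of Dishevelled, stood at 12.64 RPKM with Dkk, 6.07 RPKM in the untreated knockout and 19.41 RPKM in WT, just past the 2-fold line. Dkk1, given above, was the fourth. Sp5, a direct Wnt target, was within 2-fold, with 6.08 RPKM with Dkk, 3.41 RPKM in the untreated knockout and 3.69 RPKM in WT. Lef1, both a factor and a target, stood at 13.13 RPKM with Dkk, 21.06 RPKM in the untreated knockout and 13.71 RPKM in WT. Ccnd2 lay just inside 2-fold at -0.99, and Ccnd1 stood at 94.76 RPKM with Dkk, 93.78 RPKM in the untreated knockout and 119.64 RPKM in WT.

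A search of the 250 bases before the start for the Tcf and Lef core ATCAAAG, on both strands, found it in 1053 of 32851 RefSeq promoters, or 3.21%. Of the 8 changed readouts, 6 had a promoter in the table and 0 of these 6 held these letters in that window. With so few promoters and so low a share, 0 matches cannot set these genes apart from others.

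**Figure D4:**
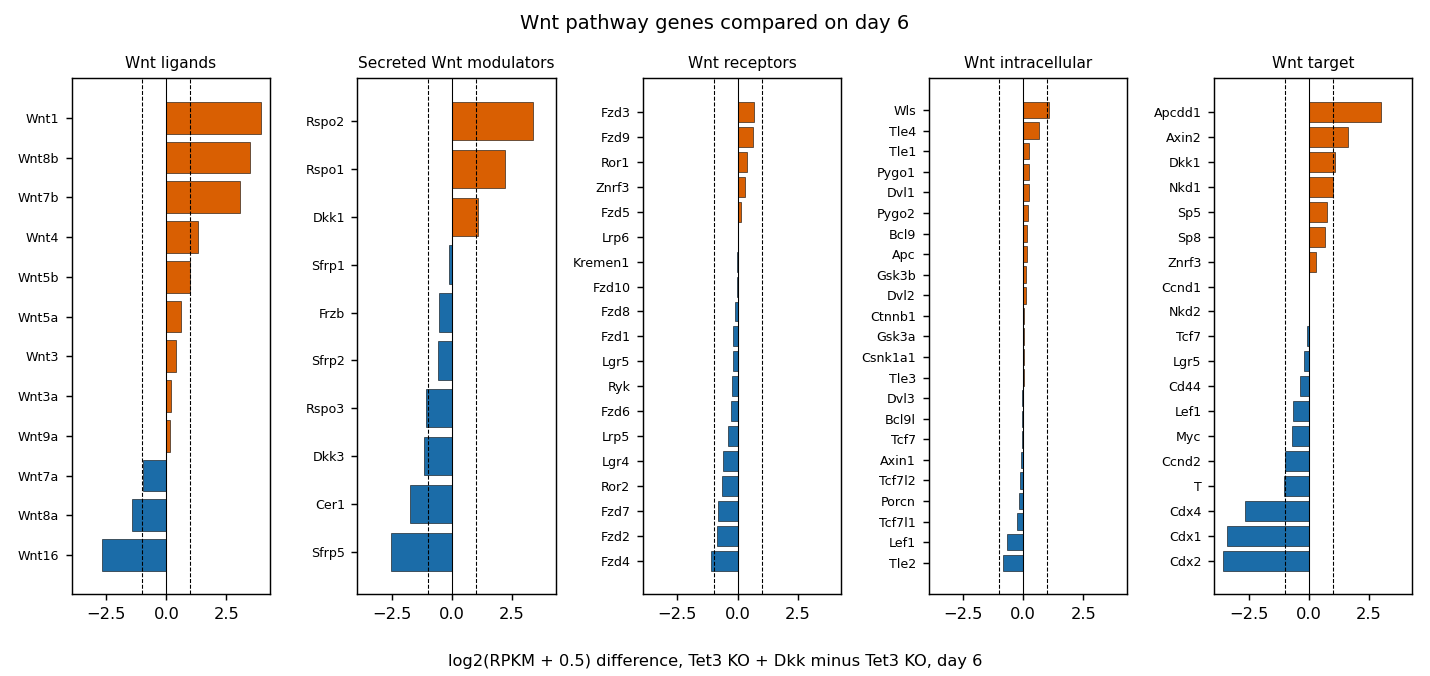
Log2(RPKM + 0.5) differences on day 6, Dkk-treated minus untreated knockout, for the Wnt pathway genes compared, by role, with 1 bar per gene and dashed lines at 2-fold. Ligands, secreted modulators and targets spread to both sides, and receptors and intracellular genes lie between the lines except Fzd4 and Wls.

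Among markers of other germ layers, lateral, cardiac and muscle genes had 9 of 15 compared lower and 0 higher. For 10 of the 15 only the untreated library reached 1 RPKM. The list summed to 24.0 RPKM with Dkk, 54.4 RPKM in the untreated knockout and 17.0 RPKM in WT. Actc1, cardiac actin, stood at 2.29 RPKM with Dkk, 10.16 RPKM in the untreated knockout and 1.83 RPKM in WT. Tnni1, a troponin of slow and embryonic heart muscle, stood at 0.25 RPKM with Dkk, 3.82 RPKM in the untreated knockout and 0.18 RPKM in WT. Endothelium and blood genes had 5 of 6 lower, 3 of the 6 having reached 1 RPKM in the untreated library only, and summed to 16.0 RPKM with Dkk and 32.6 RPKM in the untreated knockout. Kdr, the VEGF receptor of endothelial precursors, stood at 1.17 RPKM with Dkk, 4.58 RPKM in the untreated knockout and 0.41 RPKM in WT. Of 15 endoderm genes compared, 6 were lower, 8 were within 2-fold with a list median of -0.22, and 1, Afp, was higher at 3.19 RPKM with Dkk, 1.07 RPKM in the untreated knockout and 0.99 RPKM in WT. Foxa1, a pioneer factor of endoderm, stood at 0.41 RPKM with Dkk, 3.94 RPKM in the untreated knockout and 0.22 RPKM in WT.

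Surface ectoderm and epithelial genes had 7 of 11 lower and 0 higher. Their 18 genes summed to 96.3 RPKM with Dkk, 271.5 RPKM in the untreated knockout and 89.9 RPKM in WT. The 7 lower were Krt7, Krt8, Krt15, Krt18, Krt19, Cdh1 and Cldn4. For 2 of the 11 only the untreated library reached 1 RPKM. The 4 within 2-fold were Epcam, Grhl3, Tfap2c and Perp, with differences of -0.94, -0.55, 0.02 and 0.37. Under 1 RPKM in both knockout libraries were, among others, Krt5, Krt14, Trp63 and Tfap2a. Krt18 and Krt8, the paired keratins of simple epithelia, were the most abundant in the untreated knockout. Krt18 stood at 27.45 RPKM with Dkk, 96.3 RPKM in the untreated knockout and 22.66 RPKM in WT. Krt8 stood at 31.06 RPKM with Dkk, 91.94 RPKM in the untreated knockout and 22.07 RPKM in WT. Cdh1, epithelial cadherin, stood at 11.03 RPKM with Dkk, 23.87 RPKM in the untreated knockout and 11.45 RPKM in WT. Neural crest genes had 4 of 10 lower and 1 higher. Ets1, a factor of crest and endothelium, stood at 1.82 RPKM with Dkk, 13.07 RPKM in the untreated knockout and 1.68 RPKM in WT. Snai1, the factor of epithelial-mesenchymal transition, stood at 1.54 RPKM with Dkk, 5.98 RPKM in the untreated knockout and 0.8 RPKM in WT. Pax7, a dorsal midbrain and crest factor, was the higher one, with 6.45 RPKM with Dkk, 2.74 RPKM in the untreated knockout and 11.61 RPKM in WT.

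Imprinted genes had 7 of 18 lower and 0 higher, against 3.85% of all genes lower and 2.3% higher. H19, a non-coding RNA, stood at 5.52 RPKM with Dkk, 56.96 RPKM in the untreated knockout and 3.74 RPKM in WT. Its neighbour Igf2, a growth factor abundant in embryonic mesoderm and endoderm, stood at 22.99 RPKM with Dkk, 175.66 RPKM in the untreated knockout and 10.45 RPKM in WT. Peg10 stood at 32.99 RPKM with Dkk, 91.48 RPKM in the untreated knockout and 61.78 RPKM in WT. In the collagen and matrix list 3 of 13 compared were lower and 0 higher. Vtn, vitronectin, stood at 1.07 RPKM with Dkk, 12.58 RPKM in the untreated knockout and 0.67 RPKM in WT.

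BMP and Nodal genes had 6 of 19 lower and 1 higher. For 5 of the 19 only the untreated library reached 1 RPKM, and for 1 only the Dkk-treated one. Id1, a BMP readout, stood at 12.14 RPKM with Dkk, 28.24 RPKM in the untreated knockout and 7.52 RPKM in WT, and Chrd, a BMP antagonist, at 1.83 RPKM with Dkk, 5.58 RPKM in the untreated knockout and 0.78 RPKM in WT. Bmp6 was the higher one, with 2.49 RPKM with Dkk, 0.68 RPKM in the untreated knockout and 2.92 RPKM in WT. Notch genes had 2 of 17 higher, Lfng and the ligand Jag1, and 3 lower. For 3 of the 17 only the untreated library reached 1 RPKM. Jag1 stood at 23.27 RPKM with Dkk, 9.28 RPKM in the untreated knockout and 21.35 RPKM in WT. FGF genes had 1 of 20 past 2-fold, or 5.0%, beside 6.15% of all genes. It was Etv4, a transcriptional readout of FGF, at 8.75 RPKM with Dkk, 18.01 RPKM in the untreated knockout and 11.65 RPKM in WT.

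Lists of general cell state stayed within 2-fold with few exceptions. Pluripotency genes had 0 of 10 changed and summed to 406.2 RPKM with Dkk, 308.2 RPKM in the untreated knockout and 348.0 RPKM in WT. Pou5f1, the Oct4 factor, stood at 58.09 RPKM with Dkk, 36.57 RPKM in the untreated knockout and 35.78 RPKM in WT. Cell cycle, stress and p53, and Tet and Dnmt genes had 0 changed of 16, 16 and 8. Tet1 stood at 3.07 RPKM with Dkk, 2.94 RPKM in the untreated knockout and 2.74 RPKM in WT, and Tet2 at 0.67 RPKM with Dkk, 1.04 RPKM in the untreated knockout and 0.93 RPKM in WT. Of 14 housekeeping genes, 1 was past 2-fold, or 7.14%, beside 6.15% of all genes. It was Gusb, a lysosomal enzyme, with 4.08 RPKM with Dkk, 11.73 RPKM in the untreated knockout and 3.83 RPKM in WT.

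Among the 15 genes highest with Dkk, some belong to no list. Irs4, an insulin receptor substrate, stood at 19.43 RPKM with Dkk, 1.13 RPKM in the untreated knockout and 9.15 RPKM in WT. Dmrt3, a factor of cortical progenitors and spinal interneurons, stood at 14.19 RPKM with Dkk, 1.33 RPKM in the untreated knockout and 3.68 RPKM in WT. The small nucleolar RNAs Snord42b and Snora34 were listed at 0 in the untreated knockout, against 6.82 and 6.36 RPKM with Dkk and 7.12 and 2.49 RPKM in WT. Those 2 rest on an estimated 5 and 9 reads with Dkk. On the lower side Scarna9 rests on an estimated 10 reads in the untreated knockout and 0 with Dkk.

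The pair on day 10 shares no library with that on day 6 and gives a second reading of Dkk on the knockout. On day 10, 208 of 12414 genes compared were at least 2-fold higher, 1.68%, and 674 were lower, 5.43%, in all 882 genes or 7.1%. Of the 446 genes lower on day 6, 187 were also lower on day 10, which is 41.9% of the day 6 list and 27.7% of the day 10 list, and 9 were higher. Of the 267 higher on day 6, 39 were also higher on day 10, which is 14.6% of the day 6 list and 18.8% of the day 10 list, and 18 were lower.

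The 15 Hox genes of groups 4 to 9 compared on day 6 were lower on both days, as were Aldh1a2, Rarb, Dhrs3 and Stra6 of the retinoic acid genes. Hoxb9 stood at 0.46 RPKM with Dkk, 85.45 RPKM in the untreated knockout and 0.72 RPKM in WT on day 10. Aldh1a2 stood at 2.15 RPKM with Dkk, 77.72 RPKM in the untreated knockout and 0.7 RPKM in WT on day 10. Rarb differed by -3.2 on day 6 and by -3.36 on day 10. Ptch1 differed by -1.98 on day 6 and -1.35 on day 10. Of genes higher on both days, Otx2 differed by 3.49 and 3.29, Otx1 by 3.8 and 2.61, Tal2 by 3.62 and 3.77, Wnt8b by 3.48 and 3.25, and Rspo2 by 3.37 and 4.11, day 6 first. Forebrain genes had 9 of 12 higher on day 10, against 1.68% of all genes. Several of these reached 1 RPKM only in the Dkk-treated library, so they could enter only if they were higher with Dkk. Among them, Emx2 stood at 7.55 RPKM with Dkk and 0.99 RPKM without on day 10, and Fezf1 at 2.87 and 0.24 RPKM.

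Several differences were seen on day 6 and not on day 10. Wnt1 differed by 3.94 on day 6 and 0.56 on day 10, where it stood at 1.43 RPKM with Dkk, 0.81 RPKM in the untreated knockout and 0.59 RPKM in WT. En1 differed by 3.89 on day 6 and -0.07 on day 10, Wnt7b by 3.08 and 0.02, Axin2 by 1.62 and 0.33, and Apcdd1 by 3.02 and 0.28. Tcf15 differed by -5.11 on day 6 and -0.15 on day 10, where it stood at 0.92 RPKM with Dkk, 1.08 RPKM in the untreated knockout and 0.19 RPKM in WT. Cdx2 differed by -3.56 on day 6. On day 10 it was under the 1 RPKM filter, with 0.5 RPKM with Dkk and 0.34 RPKM in the untreated knockout, so its 0.25 lay outside the comparison. Krt18 differed by -1.79 on day 6 and 0.05 on day 10. Collagen and matrix genes had 15 of 20 compared lower on day 10, against 3 of 13 on day 6. Of all genes, 5.43% were lower on day 10 and 3.85% on day 6. Whether an effect differs between the days was not tested, with 1 library for each.

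**Figure D5:**
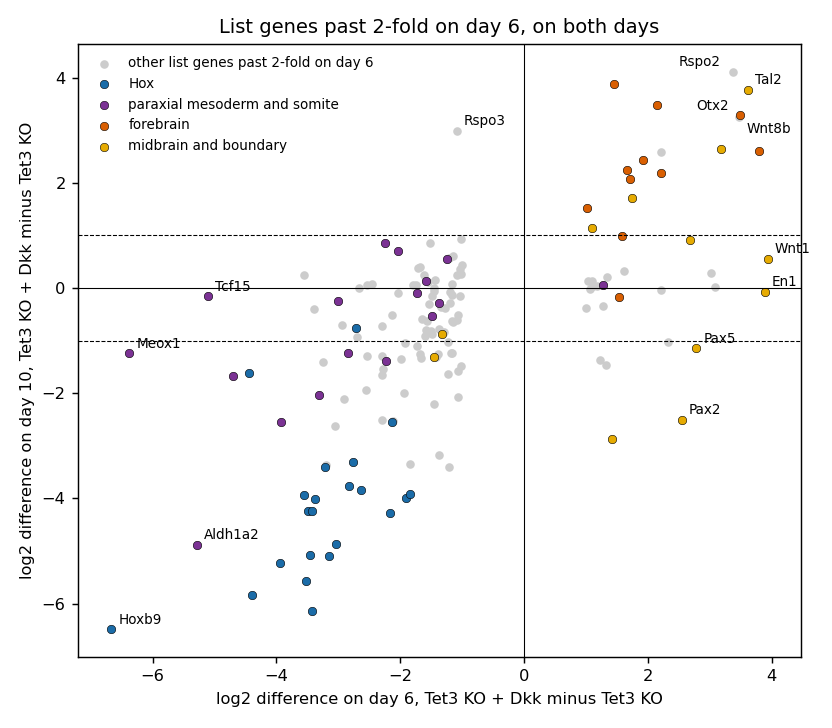
Log2(RPKM + 0.5) differences, Dkk-treated minus untreated knockout, on day 6 (horizontal) and day 10 (vertical) for list genes past 2-fold on day 6. Hoxb9, Aldh1a2, Otx2 and Tal2 differ alike on both days, Tcf15, Wnt1 and En1 lie between the 2-fold lines of day 10, and Pax2, Pax5 and Rspo3 have opposite signs on the 2 days.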

How the data were processed

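Total RNA of 10 ES-cell libraries was sequenced with a SOLiD kit and platform, per the labels' protocols. The authors deposited RPKM values, and HTSeq and build mm9 appear in the submitters' processing notes. The sources used here do not give the aligner, annotation, strand setting or handling of multiply matching reads, so paralogs, overlapping and antisense genes are uncertain.

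Differences of log2(RPKM + 0.5) were taken for genes at 1 RPKM or more in either library, and a change means at least 2-fold on that scale, which understates changes of low genes. With 1 library a condition, no test was run. Of 158 genes just inside the filter, 7 were higher and 8 lower, and of 157 just outside, 7 and 11. At the fold's edge, Nudt7 (2.33 RPKM with Dkk, 5.16 without) was just called and Sh3bp5 (3.71 with Dkk, 7.9 without) was not, and Nkd1 was just called and Igdcc3 (213.16 with Dkk, 106.37 without) was not.

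Depth was estimated from low RPKM values among 4342 symbols with a single GENCODE vM21 transcript. Between 68.4% and 72.8% of such values then lay within 0.15 of a whole read, a closeness that picking the total favours. Read numbers use the median transcript length (known for 98.2% of symbols) and are approximate. Intervals are 95% Clopper-Pearson. The fold calls and the depth search were tried on simulated data, and the intervals were not.

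The comparison and the 32 gene lists (553 names, 5 matched through an older symbol) were chosen with earlier results of these data known. Named genes are the 15 highest and 15 lowest at 5 RPKM or more, up to 6 per list by size of difference, and all Wnt pathway members with Tet1, Tet2 and Tet3. Cdh1, Cyp26a1, Dbx1, Dll1, Gata3, Hoxa2, Irx3, Msgn1, Pax1, Pax2, Pax8 and Smo were named after their values were seen. So were Eomes, Epcam, Grhl3, Krt5, Krt14, Nodal, Perp, Tfap2a, Tfap2c and Trp63. Some genes that the rule selects are not reported here. Alternatives were other pseudocounts and filters, TPM scaling and median centring. Python 3.11.15, pandas 2.3.3, NumPy 2.4.6, SciPy 1.17.1 and matplotlib 3.10.9 were used.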

Additional observations from a re-analysis of the deposited data

Results flagged for a closer look

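For 7 list genes the difference with Dkk passed 2-fold in opposite directions on day 6 and day 10. There is 1 library for each condition and day, and the difference between the days was not tested. The paired-box genes of the midbrain-hindbrain boundary were above the untreated knockout with Dkk at first and below it later: Pax2 differed by 2.55 on day 6 and -2.5 on day 10 on the log2 scale, Pax5 by 2.78 and -1.14, and Pax8 by 1.42 and -2.86. Lhx5, a forebrain and interneuron factor, differed by 2.32 on day 6 and -1.02 on day 10. Wnt4 differed by 1.32 on day 6 and -1.46 on day 10. Afp, a yolk sac and liver protein, differed by 1.23 on day 6 and -1.36 on day 10. Rspo3 went the other way, at -1.09 on day 6 and 2.99 on day 10.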

How the results depend on the processing

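The main setting called 267 genes higher and 446 lower. With a pseudocount of 1, hindbrain and spinal cord genes had 4 lower in place of 8, and Wnt readouts 2 higher in place of 4. With a filter of 5 RPKM the calls were 134 higher and 212 lower, and 94 of the list genes in place of 164. Under that filter Hox genes of group 4 and above had 6 lower, paraxial mesoderm 7, forebrain 3 higher, and hindbrain and spinal cord 4 lower, because fewer genes were compared. TPM scaling, which also moves the filter, gave 413 higher and 637 lower among 12664 genes. With no filter the calls were 294 higher and 493 lower among 21937 genes, and with a pseudocount of 0.1 they were 352 and 538. How much of the rise with TPM scaling came from the filter was not tested. The percentage of changed genes that were higher ran between 36.1 and 39.6 over the settings. No call among the counts and named genes changed direction under these settings. Each named or list gene had a tolerance, the larger distance from its main difference to a finite end of its read-ratio interval. Of 433 such genes, 16 moved by more than this with a pseudocount of 0.1, 10 with TPM scaling, 5 with a pseudocount of 1 and 1 with median centring. The main difference has a pseudocount and can lie outside the interval, so the tolerance can exceed the counting error. Leaving out small RNA genes, an alternative chosen after seeing the data, gave 237 higher and 407 lower. No paired analysis was possible because each condition has 1 library and the labels carry no replicate numbers. Depth limits low genes most: a change at 1 to 2 RPKM often rests on few reads, and a value listed at 0 gives no fold.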

Other observations

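These families were chosen after the values were seen and read by symbol. Of 73 small nucleolar, Cajal body and nuclear RNA genes compared, 16 were higher and 21 lower with Dkk, 50.7% of them, and the median of the larger estimated read number was 5. Of 44 microRNA genes, 14 were higher and 18 lower, 72.7%, at a median of 2 reads. Over all genes the share was 6.15% at a median of 202 reads. Cytosolic ribosomal protein genes, 78 compared, and NADH dehydrogenase genes, 40 compared, had 0 past 2-fold.

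Forkhead genes had 1 of 27 higher and 8 lower, 33.3% in all, with Foxc2 lowest at -4.7 on the log2 scale. Keratin genes had 5 of 5 compared lower. Solute carriers had 2 higher and 1 lower of 155, and Zfp zinc finger genes 0 higher and 1 lower of 273. Semaphorins had 0 higher and 2 lower of 16, and Eph receptors and ephrins 1 higher and 1 lower of 18.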
